A study of Mus musculus with 30 samples.

Results

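Spinal interneurons take their identity in the embryo from combinations of DNA-binding factors, and 10 such genes were examined here in adult mouse cervical cord after a cortical stroke. They were chosen by name: Pax2, Pax8, Lhx1, Lhx5, Lbx1, Lmx1b, Tlx3, Ebf1, Gata3 and En1. Values were available for 8 of the 10 among 16995 genes. Lmx1b and Tlx3, which specify the excitatory dorsal horn lineage, were not analysed here, so the set as measured leans to the inhibitory lineages.

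The study asked which transcripts change in the spinal tissue that has lost its corticospinal input as forelimb function partly returns. Adult female C57BL/6 mice received a photothrombotic stroke of the right sensorimotor cortex, in which light activates an injected dye and clots the surface vessels, or a sham operation in which the light was left off. RNA was sequenced from the intermediate laminae of the denervated side of cervical segments C5 and C6 of sham animals (n = 5) and of stroke animals at 4 (n = 4), 7 (n = 5), 14 (n = 5), 28 (n = 5) and 42 (n = 5) days post injury (dpi). A further 4 dpi animal had no values in the table, and all groups were of the same wild-type strain.

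Pax2 and Pax8 are paired-domain factors of the GABAergic and glycinergic neurons, and Lhx1 and Lhx5 are LIM homeodomain factors that act beside Pax2. Lbx1 is a factor of dorsal association neurons. En1 marks the ventral inhibitory V1 neurons, which include Renshaw cells. Gata3 marks the inhibitory V2b neurons and the neurons that contact the cerebrospinal fluid, and Ebf1, a zinc-finger factor of differentiating neurons, is also known from mural and lymphoid cells. In bulk tissue such as this, fewer cells of a type and less RNA per cell cannot be told apart.

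Pax2 was the only member that passed the test; for the other members no difference from sham was called at any time point. Its annotated starts are shown because Pax2 carries the result and the table gives a single value per gene, summed over whatever starts were used. RefSeq sequences (GRCm38.p6, plus strand, 250 bases before to 50 bases after each start) follow, with GGGCGG, the core of the GC box, in capitals on either strand.

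Pax2 start 1, chr19:44746351-44746650: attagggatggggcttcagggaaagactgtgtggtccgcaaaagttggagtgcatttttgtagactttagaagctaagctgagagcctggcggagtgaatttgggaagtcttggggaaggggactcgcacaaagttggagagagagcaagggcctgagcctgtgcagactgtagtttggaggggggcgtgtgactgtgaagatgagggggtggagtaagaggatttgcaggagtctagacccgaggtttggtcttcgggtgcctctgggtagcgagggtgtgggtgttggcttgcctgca
Pax2 start 2, chr19:44755502-44755801: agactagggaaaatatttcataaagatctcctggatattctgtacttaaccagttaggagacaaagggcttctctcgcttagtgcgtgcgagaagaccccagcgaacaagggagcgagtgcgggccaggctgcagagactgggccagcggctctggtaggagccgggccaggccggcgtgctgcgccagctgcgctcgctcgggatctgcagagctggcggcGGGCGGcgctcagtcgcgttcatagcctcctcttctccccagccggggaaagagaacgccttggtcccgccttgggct
Pax2 start 3, chr19:44756656-44756955: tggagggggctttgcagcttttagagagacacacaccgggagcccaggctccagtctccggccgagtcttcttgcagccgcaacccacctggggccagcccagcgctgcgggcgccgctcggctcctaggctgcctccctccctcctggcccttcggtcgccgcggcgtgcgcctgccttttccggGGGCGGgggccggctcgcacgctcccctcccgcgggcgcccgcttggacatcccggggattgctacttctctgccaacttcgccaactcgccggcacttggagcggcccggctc

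The first window held 7 CpG dinucleotides and no GGGCGG, the second 23 and 1, and the third 30 and 1. Over 32851 mouse promoter windows of the same length the median was 7 CpG, and 35.66% held GGGCGG. The CCAAT box was in none of the 3 windows on either strand, against 37.41% of all windows. Neither was the TATA motif TATAAA, which 13.62% of all windows held, nor the homeodomain core TAATTA, which 5.291% held. These are matches of letters only. In the deposited table (mm10) Pax2 spans 44756045 to 44837871 on the plus strand of chromosome 19, so the first 2 windows lie before the interval the table gives.

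Pax2 levels were measured in normalized CPM (reads of a gene scaled to a library size adjusted by edgeR), at a resolution of 0.1. In sham animals they were 2.4, 2.8, 3.1, 4.0 and 4.2. At 28 dpi the values were 3.4, 4.6, 5.7, 7.3 and 7.7, so 4 of 5 stroke animals lay above the highest sham animal and 1 lay within the sham range. The mean was 5.74 ± 1.81 (SD, n = 5) at 28 dpi and 3.30 ± 0.775 (SD, n = 5) in sham animals. On the log2(CPM + 0.5) scale the difference was 0.69 (SE 0.22, 95% CI 0.25 to 1.13), a 1.61-fold rise, with an adjusted p of 0.0217 by limma over all genes. Here and below, a call between groups needs both an adjusted p under 0.05 and a change of more than 1.5-fold. A call by the F test over all time points needs the adjusted p alone, with no fold limit.

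At 14 dpi Pax2 stood at 2.1, 2.3, 2.8, 2.9 and 2.9, and 2 of the 5 animals lay below the lowest sham animal. All 5 animals at 28 dpi lay above all 5 at 14 dpi. The step from 14 to 28 dpi was 0.97 (SE 0.22, 95% CI 0.52 to 1.41) on the log2 scale, or 1.95-fold, with an adjusted p of 0.000781 by limma. The values at 42 dpi, 2.8, 3.9, 3.9, 5.0 and 7.1, spread over both the sham and the 28 dpi ranges. Pax2 then differed from sham by 0.37 (SE 0.22, adjusted p = 0.439 by limma) and from 28 dpi by -0.31 (SE 0.22, adjusted p = 0.414 by limma), and neither difference passed the test.

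The earlier groups overlapped with sham. Pax2 was at 2.7, 4.1, 4.2 and 5.0 at 4 dpi, and at 2.4, 3.3, 3.5, 4.6 and 5.7 at 7 dpi. Its log2 differences from sham were 0.24 (SE 0.23) at 4 dpi, 0.19 (SE 0.22) at 7 dpi and -0.28 (SE 0.22) at 14 dpi, with adjusted p values of 1.0, 0.911 and 0.608 by limma. The moderated F test over the 5 time points together gave Pax2 an adjusted p of 0.0154.

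**Figure D1:**
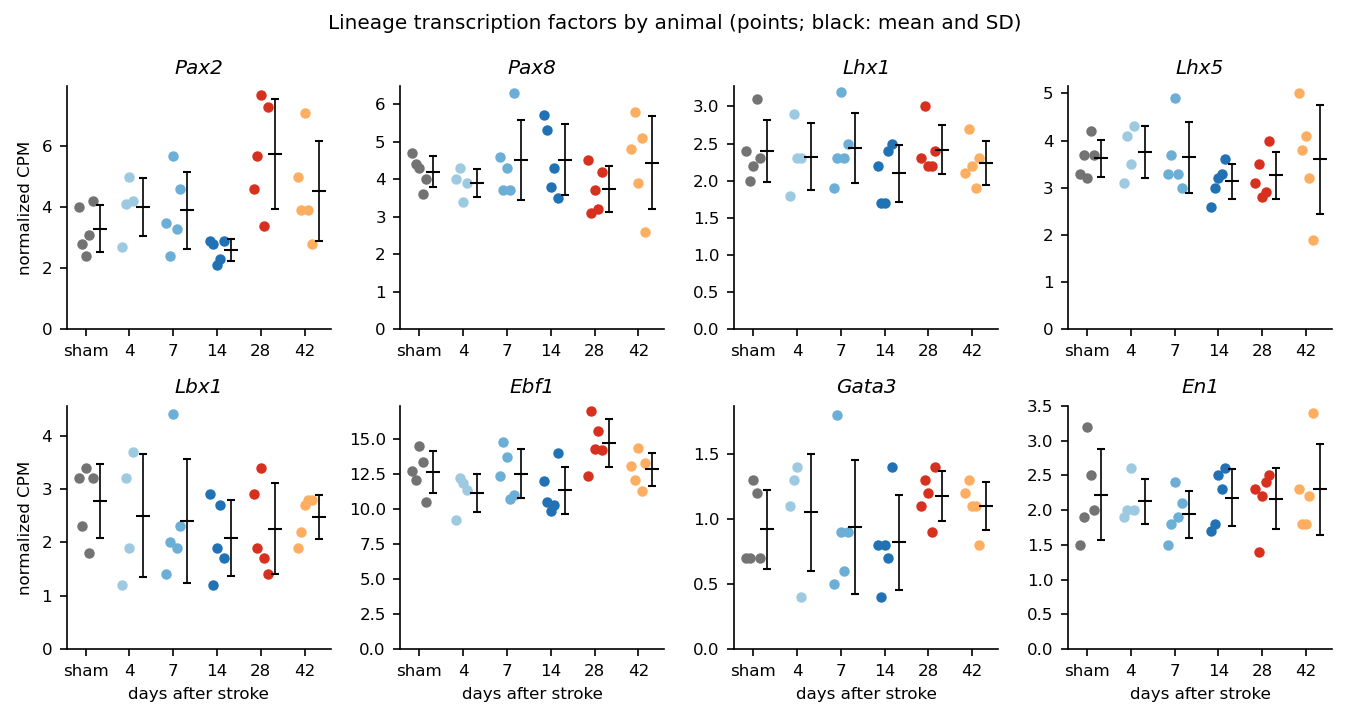
Normalized CPM (y axis) of each lineage factor in every animal (points) of the sham group and at each day after stroke (x axis), with the mean and SD in black. Pax2 at 28 dpi (3.4 to 7.7) lies above all 14 dpi animals (2.1 to 2.9), whereas in each other panel the 28 dpi animals overlap with the sham and the 14 dpi animals.

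For the remaining GABAergic lineage factors no difference was called, against sham or from 14 to 28 dpi, and whether they differed from Pax2 was not tested. Pax8, the close relative of Pax2, was at 3.6, 4.0, 4.3, 4.4 and 4.7 in sham animals and at 3.1, 3.2, 3.7, 4.2 and 4.5 at 28 dpi. Of the 28 dpi animals, 2 lay below the sham range and none above it. The log2 difference was -0.16 (SE 0.16, adjusted p = 0.496 by limma). From 14 dpi, where Pax8 ran from 3.5 to 5.7, to 28 dpi the difference was -0.24 (SE 0.16, adjusted p = 0.241 by limma). At 42 dpi the 5 Pax8 values were the most spread of any group, from 2.6 to 5.8.

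Lhx1 held a mean of 2.40 ± 0.418 CPM in sham animals and 2.42 ± 0.335 at 28 dpi (SD, n = 5 each). Of the 5 stroke animals, 4 lay between 2.2 and 2.4 and 1 at 3.0, all within the sham range of 2.0 to 3.1. Its log2 difference was 0.01 (SE 0.14, 95% CI -0.27 to 0.30), the difference nearest to 0 among the members. Lhx5, its paralog, was at 3.2, 3.3, 3.7, 3.7 and 4.2 in sham animals and at 2.8, 2.9, 3.1, 3.5 and 4.0 at 28 dpi. Although 3 of the 5 stroke animals lay below the sham range, the Lhx5 log2 difference of -0.14 (SE 0.16, adjusted p = 0.553 by limma) did not pass the test. At 14 dpi Lhx1 ran from 1.7 to 2.5 and Lhx5 from 2.6 to 3.6, and their differences to 28 dpi were 0.17 (SE 0.14) and 0.04 (SE 0.16).

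Lbx1 varied most between animals of 1 group. In sham animals it ran from 1.8 to 3.4 with a median of 3.2, and at 28 dpi from 1.4 to 3.4 with a median of 1.9. Its within-group SD on the log2 scale, 0.42, was as high as or higher than that of 95.3% of all genes. The log2 differences from sham were negative at all 5 time points, between -0.36 at 14 dpi and -0.12 at 42 dpi, and none passed the test. From 14 dpi, where Lbx1 ran from 1.2 to 2.9, to 28 dpi the difference was 0.09 (SE 0.25).

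Of the ventral markers, En1 lay between 1.5 and 3.2 in sham animals and between 1.4 and 2.5 at 28 dpi. Its mean was 2.22 ± 0.653 and 2.16 ± 0.439 (SD, n = 5 each), and the log2 difference was -0.02 (SE 0.17, adjusted p = 0.95 by limma). Gata3 was the least abundant member. It stood at 0.7, 0.7, 0.7, 1.2 and 1.3 in sham animals and at 0.9, 1.1, 1.2, 1.3 and 1.4 at 28 dpi, a log2 difference of 0.26 (SE 0.22, adjusted p = 0.393 by limma). At these levels the rounding step of 0.1 is a sizeable share of the value.

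Ebf1 was the most abundant member in CPM. Sham animals had 10.5, 12.1, 12.7, 13.4 and 14.5, and 28 dpi animals 12.4, 14.2, 14.3, 15.6 and 17.0, of which 2 lay above the sham range. The log2 difference was 0.21 (SE 0.11, 95% CI -0.01 to 0.43) with an adjusted p of 0.148 by limma. Against the 14 dpi animals, at 9.9, 10.3, 10.5, 12 and 14, the log2 difference of Ebf1 was 0.36 (SE 0.11) with an adjusted p of 0.00758 by limma, 1.29-fold and so under the limit of 1.5-fold. Here 4 of the 5 animals at 28 dpi lay above all animals at 14 dpi. The Ebf1 difference was 0.17 (adjusted p = 0.18 by limma) after correction for gene length and GC content, and 0.27 (adjusted p = 0.231 by limma) with general neuronal markers as a covariate.

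**Figure D2:**
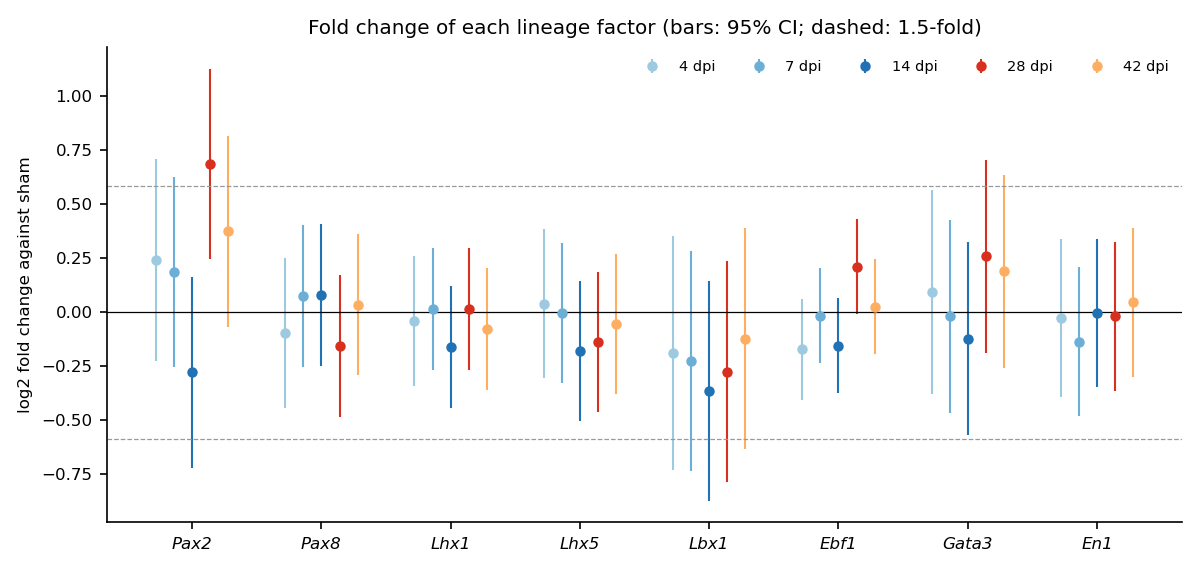
Difference of each lineage factor from sham (y axis, log2 fold change; x axis, gene) at 5 time points, with 95% confidence intervals as bars and the 1.5-fold limit dashed. The Pax2 point at 28 dpi (0.69) is the only one beyond the dashed lines.

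By count, 1 of 8 members was called at 28 dpi, where 4.64% of all genes were, and 1 of 8 from 14 to 28 dpi, where 11.8% were. At 4, 7, 14 and 42 dpi limma called 0 of 8, with 0.0941%, 0.0294%, 0.00588% and 0.0235% of all genes called. From 28 to 42 dpi it also called 0 of 8, against 0.224% of all genes. The F test called 1 of 8 members and 31.6% of all genes.

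With an unadjusted p under 0.05 there were 0 members at 4, 7, 14 and 42 dpi, where 5.14%, 5.84%, 11.6% and 14.8% of all genes reached it. There was 1 member at 28 dpi (38.5% of all genes), 2 from 14 to 28 dpi (50.7%) and 0 from 28 to 42 dpi (21.1%). No member separated fully from sham at 28 dpi, where 9.9% of all genes did in either direction, and 1 separated between 14 and 28 dpi, where 22% of all genes did. Every one of these calls was that of Pax2, and the other member with an unadjusted p under 0.05 from 14 to 28 dpi was Ebf1.

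The median log2 difference of the 8 members at 28 dpi was -0.0022, and that of all genes -0.0048, with 4 members above 0 and 4 below. For 5 of the 8 members the 95% confidence interval at 28 dpi lay wholly within 1.5-fold of sham in both directions. The exceptions were Pax2, Lbx1 (-0.78 to 0.24) and Gata3 (-0.19 to 0.71), for which a change of that size remained within the interval.

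The rise in Pax2 was measured against the other members inside each animal, a ratio that no scaling of the libraries can alter. This comparison was chosen after the values were seen and is given without a test. The ratio of Pax2 to Pax8 was 0.791 ± 0.196 (SD, n = 5) in sham animals, 0.591 ± 0.134 at 14 dpi and 1.55 ± 0.479 at 28 dpi, and 4 of 5 animals at 28 dpi exceeded the sham range. The ratio to Lhx5 went from 0.918 ± 0.235 to 1.77 ± 0.596, again with 4 of 5 animals above sham. The mean log2 ratio was higher at 28 dpi than in sham animals against each of the 7 other members, by between 0.36 (Gata3) and 1.11 (Lbx1). All of these ratios share Pax2, which had the largest log2 difference of the members, so their direction follows from the values above. They add no separate evidence. Against Gata3 only 1 animal, and against Ebf1 only 2 animals, lay above the sham range of the ratio.

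**Figure D3:**
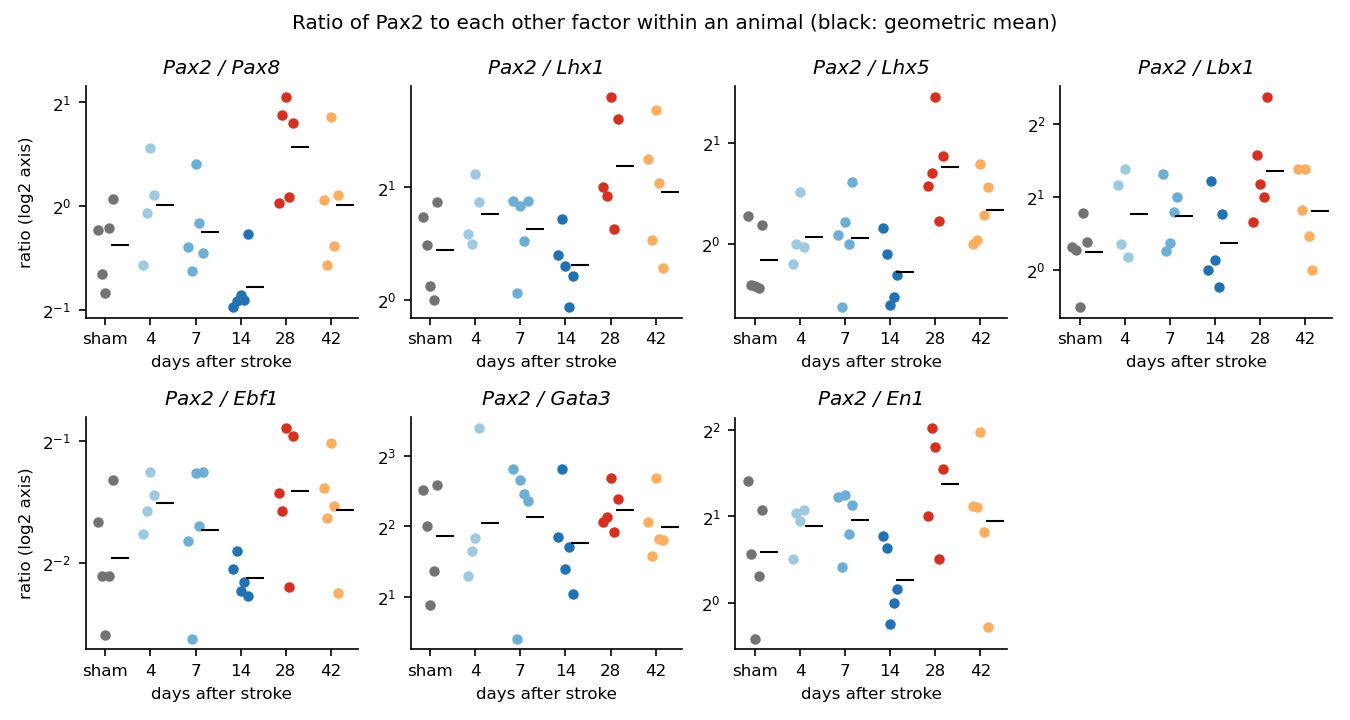
Ratio of Pax2 to each other lineage factor within an animal (y axis, log2 axis) for the sham group and each day after stroke (x axis), with the geometric mean in black. The ratio to Pax8 was above the sham range in 4 of 5 animals at 28 dpi.

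Whole-library measures also differed between the groups. The 18S ribosomal RNA entry Rn18s-rs5 ranged from 30321 to 52929 CPM in sham animals and from 44755 to 779160 at 28 dpi, where it was called higher. It was also high in other groups, from 78737 to 457300 at 42 dpi, where all 5 animals lay above the sham range, and from 32754 to 817780 at 14 dpi. The 28 dpi animal with the highest Pax2 value, 7.7, had the lowest Rn18s-rs5 of that group, 44755, within the sham range. All other animals of that group were at 291950 or more, above the sham range. With Rn18s-rs5 as a covariate the Pax2 log2 difference was 0.80 with an adjusted p of 0.0985 by limma. Under that covariate 0 of 16995 genes were called at 28 dpi, against 789 without it. After rescaling of the libraries to an equal total with ribosomal RNA included, the median of all genes moved by -0.72 on the log2 scale at 28 dpi. Under that rescaling 0 members were called higher and 5 lower, where 11086 of the 16995 genes were called, a share near that of the members and so no result about them. Without it 1 was called higher and 0 lower, and Pax2 lay 0.72 above the shifted median.

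**Figure D4:**
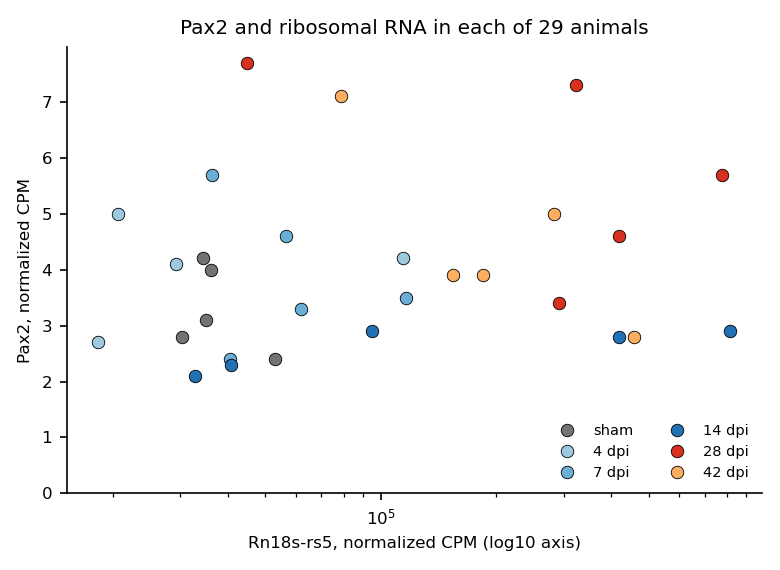
Pax2 (y axis, normalized CPM) and the ribosomal RNA entry Rn18s-rs5 (x axis, normalized CPM, log10 axis) in each of 29 animals, coloured by group. The 28 dpi animals span 44755 to 779160 on the x axis, and the highest Pax2 value, 7.7, is at the lower end. All other 28 dpi animals are at 291950 or more.

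Cell markers were compared too. At 28 dpi 24.9% of all genes had an adjusted p under 0.05 with no fold limit, and 4.64% were called. Counts near these shares are no result about a list. Of the 12 general neuronal markers, 3 had an adjusted p under 0.05 at 28 dpi, all lower, with a median log2 difference of -0.14 over the list and a summed level of 6338 to 6892 CPM against 6364 to 8375 in sham animals. Of the 8 oligodendrocyte markers 6 were lower by the same measure, with a median of -0.43 and a summed level of 4700 to 6894 against 6577 to 9717 CPM. With the general neuronal markers as a covariate the Pax2 log2 difference was 0.61 at 28 dpi (adjusted p = 0.0558 by limma) and 0.76 from 14 to 28 dpi (adjusted p = 0.0984 by limma). Of the 7 astrocyte markers 3 were lower and 1 higher at an adjusted p under 0.05, with a median of -0.17 and a summed level of 3656 to 3978 against 3405 to 3836 CPM. Of the 7 microglial markers 1 was higher, with a median of 0.11. Of the 7 meningeal and fibroblast markers 1 was called higher, with a median of 0.14 and a summed level of 40.4 to 49.4 against 36.7 to 44.2 CPM. From 14 to 28 dpi 7 of the 12 general neuronal markers (median -0.28), 7 of the 8 oligodendrocyte markers (median -0.34) and 3 of the 7 microglial markers (median -0.40) were lower at an adjusted p under 0.05, and none of these lists held a gene that was higher. Of all genes 43% passed that limit from 14 to 28 dpi, a share near that of the microglial markers. Of the 7 astrocyte markers 1 was then higher and 1 lower (median -0.06). Of the 7 meningeal and fibroblast markers 1 was higher (median 0.10). Motor neuron (7), ependymal (7), cerebrospinal fluid-contacting neuron (6, Gata3 among them) and dorsal root ganglion markers (3 of 8 with values) had no gene with an adjusted p under 0.05 at 28 dpi, with medians of 0.23, 0.22, 0.25 and -0.08. From 14 to 28 dpi their medians were -0.21, 0.47, 0.04 and -0.70. In that step 1 gene of the cerebrospinal fluid-contacting list was called higher, where 11.8% of all genes were called. The motor neuron markers spread widely within groups, with a summed level of 87.5 to 349.4 CPM in sham animals. That level was 158.6 to 498.1 CPM at 14 dpi and 151.5 to 321.1 at 28 dpi. None of these markers was at 0 on average, and their part in the Pax2 result was otherwise not tested. The animal names carry a unit number that the labels do not explain, and as no unit held both sham and stroke animals, unit and stroke cannot be told apart.

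The call at 28 dpi rested on few animals. It was lost when sham animal A12-1 (adjusted p = 0.0745 by limma) or the 28 dpi animals A3-3 (0.0512), A4-1 (0.0549) or A4-4 (0.0629) were left out, with log2 differences of 0.60, 0.68, 0.58 and 0.59 in that order. Without A4-1 the change was itself under 1.5-fold. The call from 14 to 28 dpi was kept when any single animal of these groups was left out.

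Other transcription factors of spinal neurons were listed for comparison, and 64 of 79 had values. At 28 dpi 1 was called, Pou2f2, a POU factor, by 0.75 (SE 0.25, adjusted p = 0.0268 by limma). A further 8 of the 64 had an adjusted p under 0.05 below the fold limit, all of them higher, so 9 of 64 passed the adjusted p alone, where 24.9% of all genes did. The median of the list was 0.08. From 14 to 28 dpi Pou2f2 (0.81, SE 0.25) and Zfhx3 (0.89, SE 0.13) were among 3 called higher and none was called lower, where 11.8% of all genes were called. Zfhx3 was named after its values were seen. The adjusted p alone was passed by 16 of 64, 14 higher and 2 lower, where 43% of all genes passed it.

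The genes that carry out the transmitter identity set by these factors were not called against sham. Gad1 and Gad2, which make GABA, differed from sham at 28 dpi by -0.15 (SE 0.13) and -0.15 (SE 0.14) on the log2 scale. Slc32a1, the vesicular transporter of GABA and glycine, differed by 0.01 (SE 0.10). Slc6a5, the neuronal glycine transporter, differed by 0.30 (SE 0.10, adjusted p = 0.0339 by limma), below the fold limit, and Slc17a6, the vesicular glutamate transporter of most excitatory spinal neurons, by -0.26 (SE 0.10, adjusted p = 0.0555 by limma). Below the fold limit, Slc17a8, a further vesicular glutamate transporter, differed by 0.53 (adjusted p = 0.0184), the NMDA receptor subunit Grin2b by 0.54 (adjusted p = 0.00187) and the glycine receptor subunit Glra1 by 0.33 (adjusted p = 0.0179 by limma). None of the 7 inhibitory and none of the 4 excitatory transmitter genes with values was called at any time point against sham. Of all genes 4.64% were called at 28 dpi and at most 0.0941% at the other days, so this is no result about these lists. Their median log2 difference at 28 dpi was -0.02 and 0.20. From 14 to 28 dpi 1 of the transmitter genes was called, where 11.8% of all genes were. It was Grin2b, by 0.79 (SE 0.11, adjusted p = 1.6e-05 by limma). Slc17a8, Grin2b and Glra1 were named after their values were seen.

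Among 17 measured dorsal horn peptides and markers, 2 fell and 1 rose at 28 dpi, where 4.64% of all genes were called, and the median log2 difference of the list was -0.22. From 14 to 28 dpi 5 fell and 1 rose, where 11.8% of all genes were called, with a median of -0.37. Tac1, the precursor of substance P, fell by 0.96 on the log2 scale (SE 0.34, adjusted p = 0.0385 by limma), with all 5 animals below all sham animals. Sst, somatostatin, fell by 0.71 (SE 0.17, adjusted p = 0.00499 by limma). Both peptides are made mainly by excitatory dorsal horn neurons, the class that Lmx1b and Tlx3 specify. Nmur2, a neuromedin U receptor, rose by 0.60 (SE 0.21, adjusted p = 0.0378 by limma).

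Within groups, the members varied together only weakly. After subtraction of group means, Pearson's r over 29 animals was above 0 for 20 of 28 pairs, with a median of 0.13 and a range of -0.38 to 0.47. Pax2 and Lhx5 had r = 0.47 (rho = 0.39, permutation p = 0.0367, adjusted p = 0.316 over 28 pairs), falling to r = 0.44 once the 2 animals most distant from the Pax2 median were dropped. Lhx1 and Ebf1 had r = 0.47 (rho = 0.44, permutation p = 0.0264, adjusted p = 0.316), and Ebf1 and Gata3 r = 0.46 (rho = 0.46, permutation p = 0.0345, adjusted p = 0.316). Two-sided permutation tests within groups gave 3 pairs with an unadjusted p under 0.05 and 0 pairs with an adjusted p under 0.05, for r as well as for rho after adjustment.

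**Figure D5:**
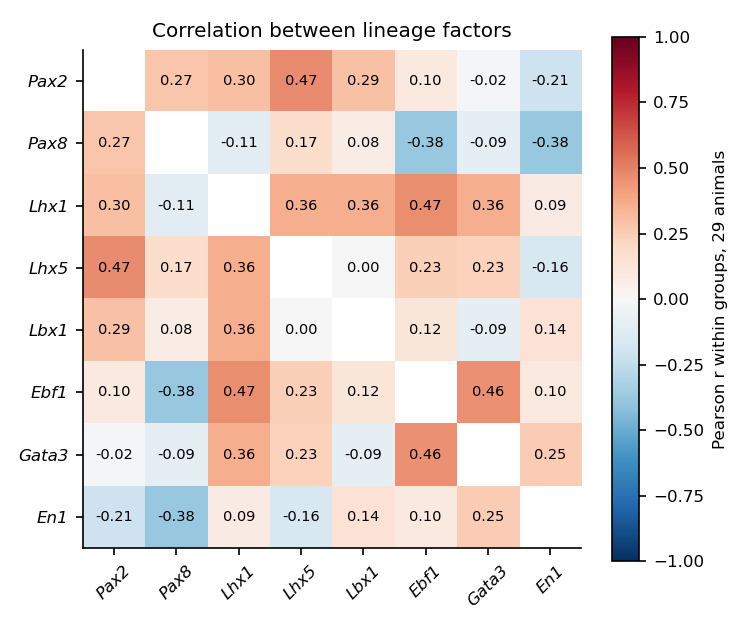
Pearson's r between lineage factors (both axes) over 29 animals after subtraction of group means, on a colour scale from -1 to 1. The highest value is 0.47 and the lowest -0.38.

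The genes most like each member were not other members. Those whose values followed Pax2 most closely within groups were Sik3 (r = 0.83), Crtc1 (0.82) and Auts2 (0.82), out of 15495 genes with a mean of at least 1 CPM, whereas Lhx5 ranked 1032 among 16994. Pax8 was followed by Ece2 (0.75), Ankrd24 (0.70) and Acp6 (0.69), Lhx1 by Fam169b (0.73), Gm12766 (0.73) and Zbtb40 (0.69), and Lhx5 by Hs6st1 (0.77), Epha2 (0.73) and Meis3 (0.72). Lbx1 was closest to Synpr (0.73), to Zic1 (0.73), a zinc-finger factor of the dorsal cord, and to Slc1a6 (0.73). Ebf1 was closest to Emsy (0.77), Gm10040 (0.74) and Ccdc93 (0.72), Gata3 to Gm16485 (0.69), Wnt5a (0.69) and Sike1 (0.67), and En1 to Gm20186 (0.76), Slc25a46 (0.72) and Cul2 (0.70). These values are descriptions over the same 29 libraries, whose depth is unknown and whose ribosomal content differs.

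Per kilobase of exon the order of levels in sham animals was Lhx5 (1.35 ± 0.147 CPM per kb, SD, n = 5), Ebf1 (1.30 ± 0.153), Lbx1 (1.12 ± 0.279), En1 (0.846 ± 0.249), Pax8 (0.693 ± 0.069), Pax2 (0.610 ± 0.143), Lhx1 (0.589 ± 0.103) and Gata3 (0.231 ± 0.0762). Each neighbouring pair in this order overlapped between animals, apart from Lhx1 and Gata3. Thus Ebf1, by far the most abundant in CPM, was level with Lhx5 once its exon length of 9.76 kb was taken into account.

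Some members lie beside or across other transcribed loci (mm10), and the library type does not keep the strand. Pax8 (chromosome 2, 24420560 to 24475599, minus strand) is overlapped on the opposite strand by Gm13415, which shares 367 exonic bases with it, and 5.1% of the 31-base words of Pax8 also occur in Gm13415. Gm13415 rose by 0.68 on the log2 scale from 14 to 28 dpi (SE 0.20, adjusted p = 0.00846 by limma), while Pax8 went by -0.24. Beside Lhx1 (chromosome 11, 84518284 to 84525535, minus strand) lies the divergent noncoding Lhx1os, with no shared exon. Lhx1os fell by 0.69 over the same interval (SE 0.18, adjusted p = 0.00352 by limma), while Lhx1 changed by 0.17 (SE 0.14, adjusted p = 0.322 by limma). Lhx5 (chromosome 5, 120431699 to 120441223, plus strand) overlaps Gm27199 by 69 bases. From 14 to 28 dpi Gm27199 differed by 0.31 (SE 0.26), Aatf beside Lhx1 by 0.10 (SE 0.091) and Psd4 beside Pax8 by 0.33 (SE 0.23) on the log2 scale, and none of these neighbours was called. No 31-base word of Pax2, Lhx1 or Lbx1 occurred in any other annotated gene. Of the Gata3 words 3.83% occurred in other genes, among them genes without values that overlap its exons. Lbx1 lies at 45232684 to 45235812 on the minus strand of chromosome 19, Ebf1 at 44617317 to 45008091 on the plus strand of chromosome 11, Gata3 at 9857078 to 9890034 on the minus strand of chromosome 2, and En1 at 120602418 to 120607992 on the plus strand of chromosome 1.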

How the data were processed

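The 10 genes and all comparison lists were chosen with earlier results of these data known. Total RNA was depleted of ribosomal RNA, made into unstranded libraries and sequenced single-end, and the authors estimated transcript abundance with SALMON, imported it with Tximport, removed genes of low expression and deposited normalized CPM from edgeR (version 3.14.0, R 3.4.1, per the labels). These deposited values, rounded to 0.1, were treated as a score: they are not read counts, and read depth per animal is unknown. The sums of the values ran from 714597 to 2256910 per animal. The table also holds the authors' own fold changes and p-values, which were not used.

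Values were transformed as log2(value + 0.5), where a difference understates the change of low genes, and fitted with limma 3.58.1 (R 4.3.3) on 6 group means, with a trend on the mean and Benjamini-Hochberg adjustment over 16995 genes. The fit was tested on simulated data. No p was computed for the members as a set. Replicates are separate animals, and RNA of all of them was extracted together. Named were all members, and genes of the neuron, transmitter and dorsal horn lists called against sham (at most 6 a list). Also named were 5 transmitter genes in any case, the 3 genes most like each member, and genes with values within 10 kb of a member. The few others were named after their values were seen. Relations between members used 100000 permutations within groups. Alternatives covered scaling, pseudocount, low-value filter, covariates, random unit block, length and GC correction, and leaving out animals. Sequences came from RefSeq windows, which held 8 of the 10 genes. A result for 1 gene of the comparison lists is not reported here.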

Additional observations from a re-analysis of the deposited data

Results flagged for a closer look

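Over 48 groups of 4 or 5 animals (8 members in 6 groups), 3 held an animal far from the rest of its group by Dixon's test, which chance alone gives in about 1 group of 20. Lhx1 was at 3.0 in 28 dpi animal A3-3, above the other 4 animals of that group, and En1 was at 1.4 in the same animal, below the others. A3-3 also had the highest Rn18s-rs5 of the 28 dpi group, 779160. En1 was at 2.6 in 4 dpi animal A9-2.

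Between 14 and 28 dpi 2 of 8 members had an adjusted p under 0.05 in limma, where 43% of all genes did: Pax2 by 0.97 on the log2 scale (adjusted p = 0.000781), higher in 5 of 5 animals than in any 14 dpi animal, and Ebf1 by 0.36 (adjusted p = 0.00758), in 4 of 5 animals and below the 1.5-fold limit of a call.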

How the results depend on the processing

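Pax2 stayed higher at 28 dpi than in sham animals under every alternative but the rescaling to an equal total, and higher at 28 than at 14 dpi under all of them. The call at 28 dpi (1 member, Pax2) went to 0 members with Rn18s-rs5 (0 of 16995 genes called, against 789) or the general neuronal markers (480 genes) as a covariate, and in 2 alternatives added after the data were seen: without the 2 animals with Rn18s-rs5 above 500000 (Pax2 0.68, adjusted p = 0.054 by limma, 416 genes called) and without the 8 above 200000 (Pax2 1.13, adjusted p = 0.159, 4 genes called), which leaves 1 animal at 28 dpi, assumed to vary like the others. Leaving out 1 animal at a time gave 0 to 1 members at 28 dpi and 1 to 2 members in the F test. Without A3-3 and A12-1, where the 28 dpi call was lost, 413 and 509 genes were called, against 789. Without A4-1 and A4-4, where it was lost too, 990 and 829 genes were called. The F test (5375 genes) called 2 members with quantile normalization (5068 genes), with median centring (5157) and with the unit as a random block (6227), and 0 with the general neuronal markers (1662), the dorsal horn markers (2183) or the 8 animals taken out (11), alternatives in which calls over all genes fell too. Between 14 and 28 dpi, 2 members passed with no fold limit (43% of all genes), and 0 passed with the general neuronal markers as a covariate (213 genes, against 2002) or with the equal total (716). With the equal total 5 members were called lower at 28 dpi (11086 genes called) and 5 by the F test (11308), and the values were -0.0066 for Pax2, -0.63 for Lhx1, -0.55 for Ebf1, -0.25 for Gata3 and, at 42 dpi, -0.10 for Pax2, before the shift of -0.72 is taken off. The small differences of Lhx1 and En1 at 28 dpi changed sign most often. Lhx1 was at -0.14 with quantile normalization, -0.043 with Rn18s-rs5, -0.040 with the general neuronal markers, and -0.053 and -0.092 without the 2 and the 8 animals. En1 was at 0.013 with median centring, 0.073 with the general neuronal and 0.068 with the dorsal horn markers, 0.020 with the length and GC correction, and 0.098 and 0.021 without the 2 and the 8 animals, where Lbx1 was at 0.28. Without single animals Lhx1 ran from -0.053 to 0.095 and En1 from -0.12 to 0.10. The causes were not tested. Of 41 further fold changes of members under 16 alternatives (656 values), 47 changed sign and 0 were called. No pair of members passed under any alternative (0 pairs). The adjusted p of Ebf1 from 14 to 28 dpi rose above 0.05 with the dorsal horn markers (0.0525), without the 8 animals (0.23) and with the equal total (0.835). No paired analysis was possible because the animals carry no replicate number that is shared between groups, and of the unit numbers only 1 holds animals of more than 1 group (28 and 42 dpi). Depth was unknown, and rounding to 0.1 limits Gata3 most.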
